A study of Mus musculus with 6 samples.

Results

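The comparison described here set thymocytes kept for 40 h with antibody to CD3 against freshly isolated thymocytes. All cells came from Rag1-/- mouse fetuses at embryonic stage E17.5 and carried the surface protein Thy1.2, by which they were purified magnetically. The control group called Control-0h held 2 arrays of cells taken straight from the thymus, named fresh 1 and fresh 2 below. The group called Control-DMSO-40h held 2 arrays of cells from thymi that had received anti-CD3 and the solvent DMSO for 40 h, named DMSO 1 and DMSO 2. These are 4 of the series' 6 arrays. The last 2, which received a Bcl6 inhibitor as well, entered the fit only to share its estimate of the spread. Every gene with a usable probe set was described, 19937 in all. The series' design text, not the sample labels, says that the thymi were cultured as organs. Culture, time, DMSO and antibody changed together between the groups and cannot be told apart.

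Rag1 encodes part of the enzyme that cuts T cell receptor gene segments so that they can be joined. Without it no receptor chain is made, and thymocytes halt at the double-negative 3 stage, in which neither CD4 nor CD8 is on the surface. In a normal thymus a successful beta chain pairs with a surrogate chain to form the pre-T cell receptor, whose signal goes through the CD3 proteins. That signal brings a burst of division, ends the progenitor programme and leads to cells carrying both CD4 and CD8. Antibody to CD3 stands in for the pre-T cell receptor in Rag1-deficient thymi, and the question here was which genes had moved after 40 h, beyond the well-known stage markers.

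Values are log2 of the authors' normalised array intensity. A gene was counted as changed, and is said to have risen or fallen, only when limma gave an adjusted p under 0.05 with the same sign in the fit of all arrays and in each of 6 fits that left out 1 array. By that rule 1771 of 19937 genes changed, 8.88% of those tested. Of these, 763 rose (3.83%) and 1008 fell (5.06%), and the list counts below are to be read against these shares. With array medians made equal the split was 971 and 944. In the 1 limma fit of all arrays 3902 genes (19.6%) had an adjusted p under 0.05, and 2292, 2347, 2286 and 2382 did without DMSO 1, DMSO 2, fresh 1 or fresh 2, which is why every fit was required. Changes of at least 2-fold were found for 189 genes that rose and 304 that fell, and changes of at least 4-fold for 38 and 44. The smallest change counted was 0.40 on the log2 scale. None of the counted genes had overlapping arrays, but over all genes the fresh and DMSO arrays also failed to overlap for 31.9% in the higher and 28.1% in the lower direction.

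**Figure D1:**
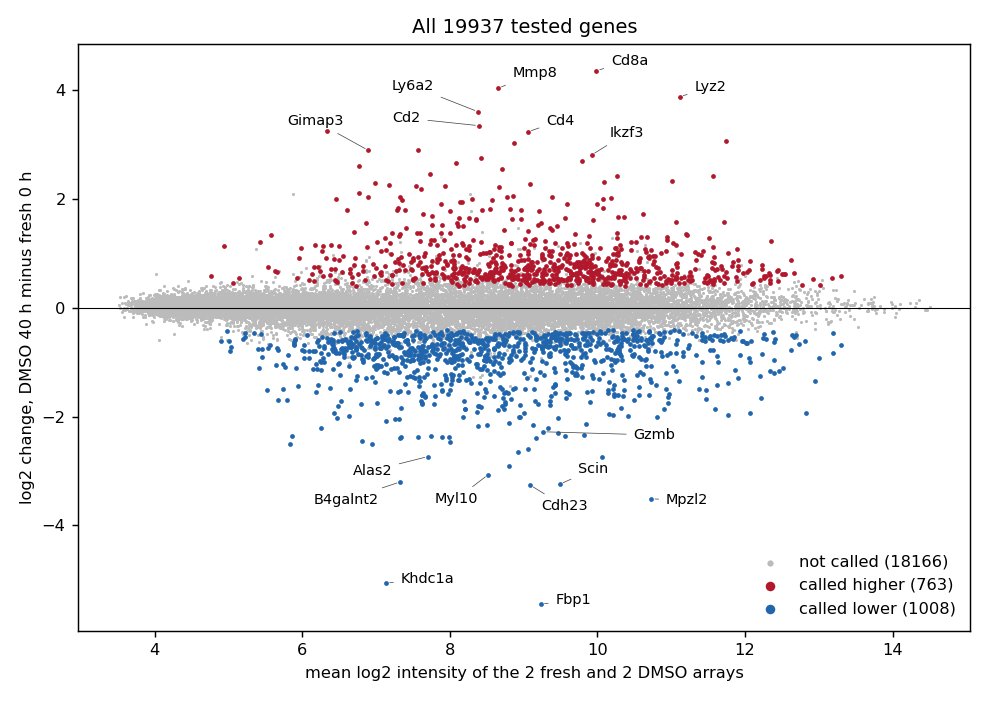
Each point is 1 of 19937 genes, with its mean log2 intensity on the x axis and the log2 change from fresh to DMSO on the y axis. The 763 genes that rose are red, the 1008 that fell are blue and the 18166 not called are grey. The points spread to both sides of 0 over the whole range of intensity, and Fbp1 and Khdc1a lie lowest.

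The arrays were close within groups. Fresh arrays correlated at 0.998 across genes and DMSO arrays at 0.998, against 0.985 to 0.986 between the groups, and the median intensity of an array was between 99.3 and 103.6. With 2 arrays a group, precision is limited by their number. Whether replicates were separate litters or cultures is not in the labels, and the p-values therefore describe the spread among these arrays and no more. Thy1, the gene of the protein used for purification, was bright, at 12.82 and 12.78 in the fresh and 13.20 and 13.26 in the DMSO arrays. Because the cells were selected by that protein, its RNA is no separate check of their lineage. Rag1 RNA was still read at 11.51 and 11.42 fresh and at 11.14 and 11.09 in DMSO, and it is not known here whether its probes lie in the deleted part. Markers of other cells were present in both groups. The summed intensity of 19 macrophage and dendritic cell genes was 9167 and 13008 in the fresh and 22022 and 24173 in the DMSO arrays. That of 20 thymic epithelial genes was 18199 and 18936 against 7971 and 11191, and that of 14 natural killer (NK) and innate lymphoid genes 11775 and 14204 against 6844 and 6742. That of 15 granulocyte and mast cell genes was 4419 and 5088 against 6386 and 6504. The T lineage sum was lower in both DMSO arrays as well (55588 and 54287 fresh, 49188 and 50309 DMSO), as were the B cell sum (2780 and 2842, then 2279 and 2373) and the mesenchymal and endothelial sum (5710 and 6172, then 4484 and 5087). When the macrophage median was added to the model, 0 genes met the rule in every fit. In the 1 limma fit of all arrays with it, 201 genes had an adjusted p under 0.05 (59 higher, 142 lower) and 2331 an unadjusted p under 0.05, while 1769 of the 1771 counted genes kept their sign. In bulk RNA, fewer cells of a type and less RNA per cell cannot be told apart.

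**Figure D2:**
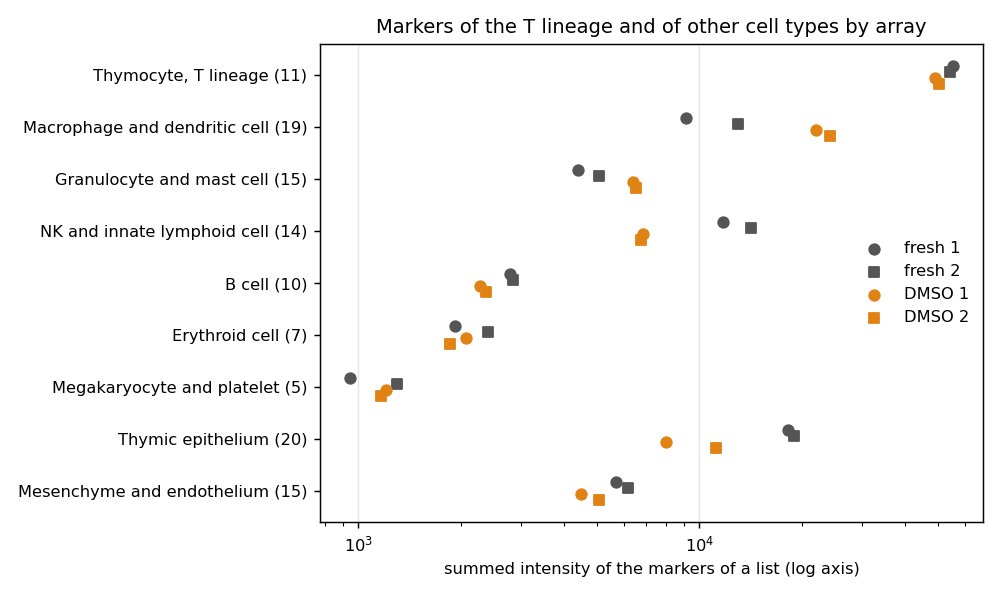
Summed intensity, on a log axis, of 9 lists of cell type markers in each of the 4 arrays. Fresh and DMSO arrays separate upward for the macrophage and the granulocyte lists and downward for the epithelial and the NK lists, and the T lineage sum is 55588 and 54287 in the fresh and 49188 and 50309 in the DMSO arrays.

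Sequences near the start sites of the genes that moved were read first. Promoters, taken as 250 bases before to 50 after the start, were available for 15562 of the 19937 genes (RefSeq, GRCm38.p6), and 12 short motifs were searched for in these 300 bases on both strands. The sequences shown carry the motifs that stood out in the interferon and the mitotic lists, described further on. The first is the interferon-stimulated response element, searched for as GAAA, 2 bases of any kind and GAAA, to which interferon-activated transcription factors bind. It was in 3.32% of all promoters, in 7.13% of those of 617 genes that fell by at least 1.5-fold, in 4.28% of 444 that rose as much, and in 5 of the 14 available promoters (35.7%) of interferon pathway genes that fell. It was also in 5 of the 54 available promoters (9.26%) of the mitotic genes that rose. Printed here are 100 bases of the promoters of the 5 genes with the largest falls among those with a match before the start. Genes of 1 chromosome were left out of this choice. Capitals mark the motif on either strand, in the gene's own direction.
Gm12250, chr11:58183743-58183842, plus strand: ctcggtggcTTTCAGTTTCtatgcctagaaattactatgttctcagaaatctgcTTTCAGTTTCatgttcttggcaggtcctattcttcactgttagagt
Ifit3b, chr19:34607763-34607862, plus strand: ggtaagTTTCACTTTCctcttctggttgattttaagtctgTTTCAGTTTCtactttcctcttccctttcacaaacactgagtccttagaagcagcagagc
Ddx60, chr8:61927987-61928086, plus strand: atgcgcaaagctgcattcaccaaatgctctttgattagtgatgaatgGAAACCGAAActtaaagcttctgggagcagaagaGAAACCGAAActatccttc
Apol7c, chr15:77533316-77533415, minus strand: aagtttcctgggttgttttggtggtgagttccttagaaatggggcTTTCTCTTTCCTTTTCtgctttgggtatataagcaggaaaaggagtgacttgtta
Gm12185, chr11:48927198-48927297, minus strand: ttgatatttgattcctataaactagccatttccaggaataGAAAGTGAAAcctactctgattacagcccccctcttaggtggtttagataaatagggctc
Gm12250, Ifit3b and Ddx60 hold 2 separate matches each, Apol7c 2 overlapping ones and Gm12185 a single one.

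The second motif is the cell cycle genes homology region, TTTGAA, through which the DREAM and MuvB complexes time transcription to late cell cycle. It was in 15.2% of all promoters, in 40 of the 54 available promoters (74.1%) of kinetochore, spindle and cytokinesis genes that rose, in 21.6% of the promoters of genes that rose by at least 1.5-fold and in 13% of those of genes that fell as much. The CCAAT box, often found with it, was in 38.3% of all promoters and in 37 of 54 (68.5%) of the same mitotic genes. Of the interferon pathway genes that fell, 1 of 14 promoters (7.14%) held TTTGAA. Printed next are 100 bases from the mitotic genes with the largest rises among those with a match before the start, with the motif in capitals. The chromosome left out of the first choice was left out here too.
Kif11, chr19:37376282-37376381, plus strand: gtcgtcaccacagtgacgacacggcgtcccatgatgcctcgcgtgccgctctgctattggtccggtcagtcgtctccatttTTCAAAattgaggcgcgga
Ncapg, chr5:45669825-45669924, plus strand: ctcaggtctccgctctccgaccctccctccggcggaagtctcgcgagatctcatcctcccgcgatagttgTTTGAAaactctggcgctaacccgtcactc
Top2a, chr11:99024190-99024289, minus strand: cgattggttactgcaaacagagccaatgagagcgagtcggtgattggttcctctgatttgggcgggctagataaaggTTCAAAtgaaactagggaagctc
Kif2c, chr4:117178816-117178915, minus strand: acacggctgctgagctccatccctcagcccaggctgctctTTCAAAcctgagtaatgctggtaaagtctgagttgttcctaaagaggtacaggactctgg
Cenpl, chr1:161070565-161070664, plus strand: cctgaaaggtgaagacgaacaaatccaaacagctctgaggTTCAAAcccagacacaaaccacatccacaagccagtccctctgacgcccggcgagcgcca
A match describes the letters only and shows no binding. The E2F site GCGGGAAA was in 1.59% of all promoters and 5.56% of those of the mitotic genes. For CREB and ATF (TGACGTCA) the shares were 2.5% and 7.41%, for Ets factors (CCGGAAGT) 5.6% and 13%, and for GCGTG, the core of the xenobiotic response element, 41.1% and 55.6%. Shares of the remaining motifs in all promoters, and in those of genes that rose or fell by at least 1.5-fold, were 15.9%, 16.7% and 19.1% for CAGCTG (E proteins) and 8.4%, 5.86% and 11% for CACGTG (Myc). They were 14.2%, 15.1% and 10.9% for TGTGGT (Runx), 24%, 19.8% and 22.9% for TGGGAA (RBPJ) and 8.32%, 9.68% and 9.24% for GGGTGTG (Kruppel-like factors). Matches to different motifs can share bases.

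**Figure D3:**
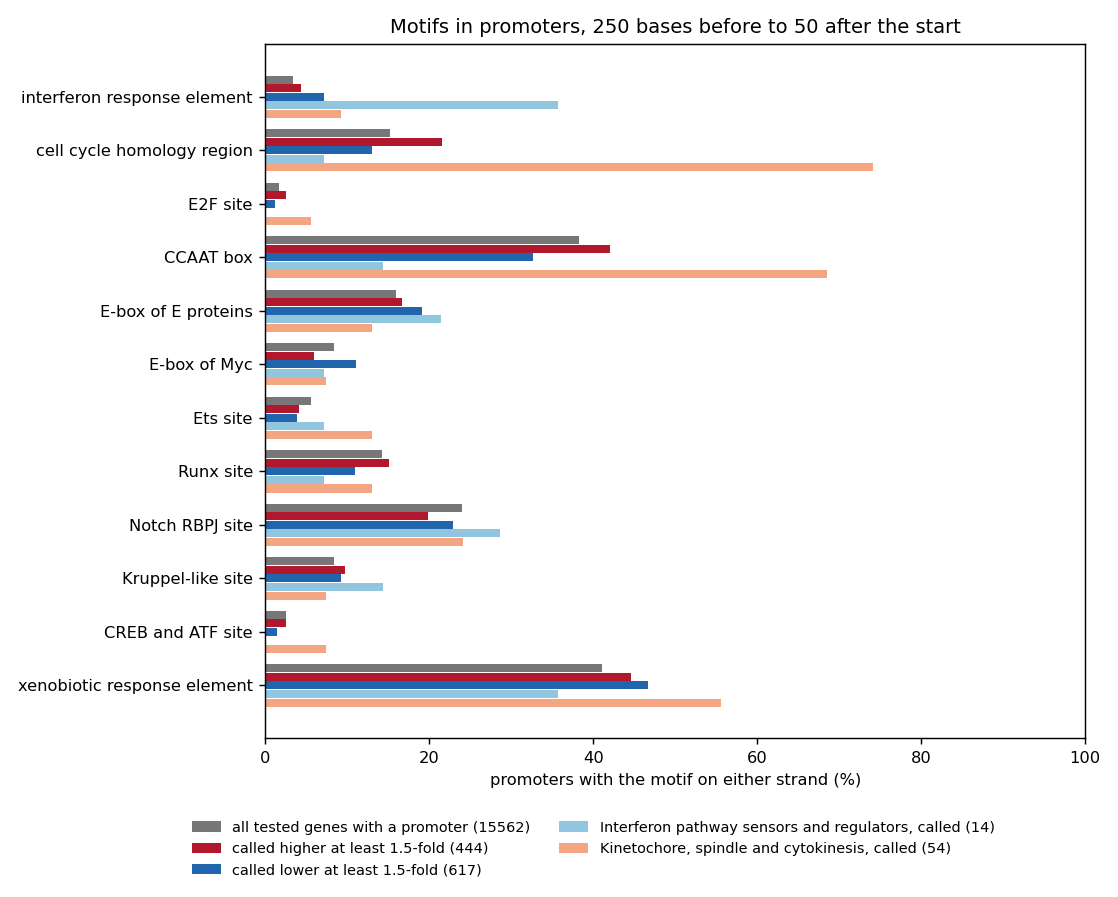
Percentage of promoters of 300 bases that hold each of 12 motifs, for all genes, genes that rose or fell by at least 1.5-fold, and the called members of the interferon and the mitotic lists. The bars that stand out are the interferon response element in the interferon genes (35.7% against 3.32% of all promoters) and TTTGAA in the mitotic genes (74.1% against 15.2%).

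Surface receptors that tune T cell signals were read beside the coreceptors, which had also risen (Cd8a by 4.36, Cd4 by 3.23 and Cd8b1 by 3.07). Of 23 receptors and adaptors of the SLAM and costimulatory group, 11 rose and 2 fell, with a median change of 0.63 against 0.017 over all genes. Cd2, an adhesion receptor that binds CD48, read 6.45 and 6.99 in the fresh arrays and 10.08 and 10.06 in the DMSO arrays. The difference was 3.35 ± 0.16 (limma standard error, SE), 10.2-fold, with an adjusted p of 2.6e-05 (limma). Both DMSO arrays lay far above both fresh ones, and the fresh arrays differed from each other more than the DMSO arrays did. Cd6, a scavenger receptor that binds ALCAM, stood at 6.70 and 6.80 fresh and at 9.39 and 9.44 in DMSO. Cd28, the main costimulatory receptor, was at 8.90 and 8.98 and then at 11.23 and 11.26. Cd5, which restrains receptor signals in thymocytes, went from 7.51 and 7.59 to 9.66 and 9.89. In these 3 genes the DMSO arrays were more than 2 log2 units above the fresh arrays, with no overlap. Ly9, a SLAM receptor, rose by 1.66 ± 0.09 and Sh2d1a, the SAP adaptor of that family, by 1.62 ± 0.10. Pdcd1, which encodes PD-1 and was picked after its values were seen, rose by 0.90 ± 0.07. The inhibitory receptors Ctla4 and Cd160 fell, by 0.95 ± 0.11 and 0.78 ± 0.08.

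The chains of CD3, the target of the antibody, fell while their partners rose. Cd3g fell by 0.68 ± 0.09, Cd3d fell by 0.47 ± 0.07 and Cd3e fell by 0.47 ± 0.07. Cd247, the zeta chain, rose by 0.56 ± 0.09 and Zap70, the kinase that docks on it, by 1.42 ± 0.09. In Zap70 the DMSO arrays read 9.65 and 9.89 against 8.38 and 8.32 fresh. Ptprc, the CD45 phosphatase, rose by 0.45 ± 0.07 and Thy1 by 0.43 ± 0.07. Of 11 T lineage markers 4 rose and 4 fell, so the list moved both ways.

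Small GTPases of the Gimap family, which act in lymphocyte survival, were higher in both DMSO arrays than in both fresh arrays for each member. All 8 measured members had a change above 0 (0.17 to 2.89, median 1.22) and 6 of them rose. Gimap3 had the largest rise, from 5.36 and 5.54 in the fresh arrays to 8.29 and 8.40 in the DMSO arrays, 2.89 ± 0.09 and 7.42-fold (adjusted p 6.8e-06, limma). Gimap4 read 8.25 and 8.64 and then 11.17 and 11.11. Gimap6 read 9.70 and 9.80 and then 11.50 and 11.46. These 3 were separated by at least 1.7 between groups in their mean, and replicate arrays of Gimap3 and Gimap6 lay within 0.2 of each other. Gimap7 rose by 1.28 ± 0.10, Gimap8 by 1.17 ± 0.11 and Gimap9 by 0.61 ± 0.07. Gimap1 (8.42 and 8.43 fresh, 8.45 and 8.74 DMSO, adjusted p 0.317) and Gimap5 (8.42 and 8.44 fresh, 8.68 and 8.87 DMSO, adjusted p up to 0.152 with 1 array left out) did not meet the rule. The genes lie side by side on chromosome 6, and Gimap8, Gimap9, Gimap4, Gimap6 and Gimap7 made an unbroken run of genes that rose. Related sequences can bind each other's probes, so values of single family members are uncertain.

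Other lymphocyte families moved less uniformly. Among 10 measured Ly6 genes only Ly6a2 rose, from 6.50 and 6.67 to 10.22 and 10.15 (3.60 ± 0.11, 12.1-fold, adjusted p 6.8e-06, limma). Ly6e, bright in all arrays, was at 13.59 and 13.57 fresh and at 13.32 and 13.41 in DMSO, with an adjusted p of 0.0898. Of 8 Schlafen genes, a family of growth restraint and antiviral defence, Slfn3 rose by 0.51 ± 0.08 while Slfn8 fell by 0.85 ± 0.07 and Slfn9 by 0.46 ± 0.07. The Ms4a list of 19 four-pass membrane proteins had 3 that rose and 0 that fell: Ms4a6c by 1.84 ± 0.23, Ms4a4b by 1.19 ± 0.15 and Ms4a6b by 0.80 ± 0.11. The summed macrophage markers moved in the same direction as these 3, and their part was not tested.

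**Figure D4:**
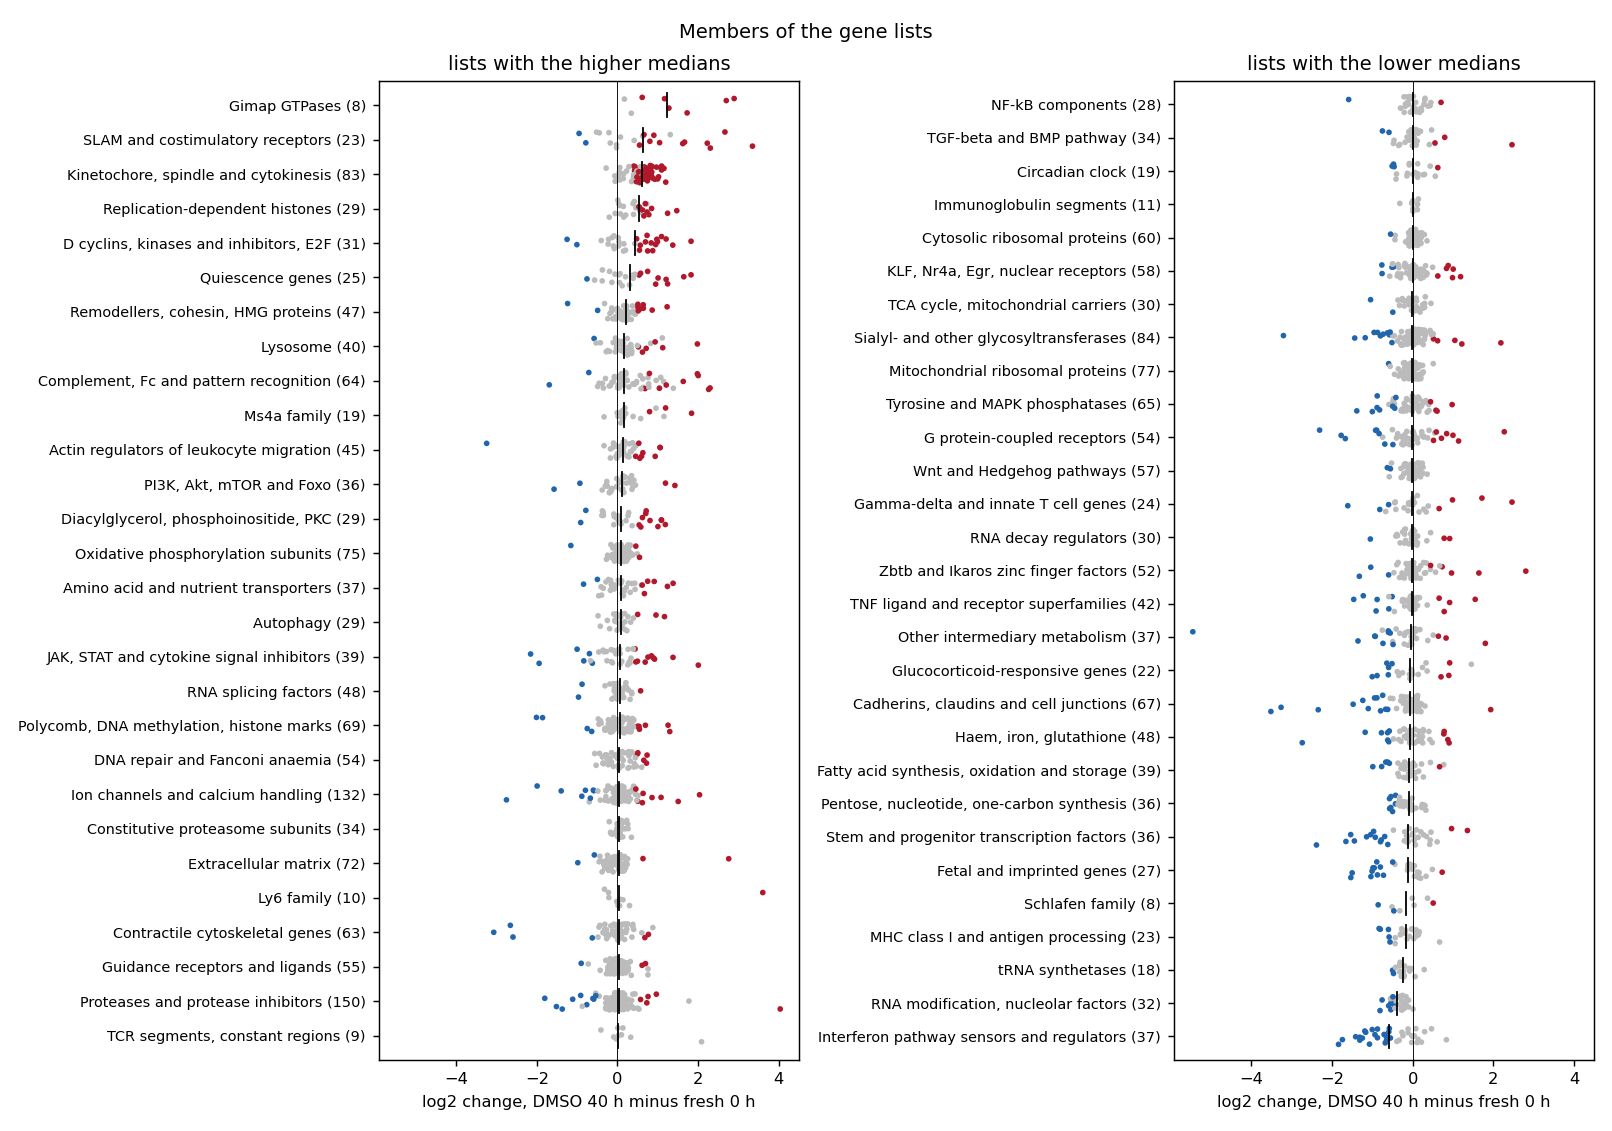
Log2 change from fresh to DMSO of each member of the gene lists shown, 1 row a list, with a black bar at the list's median. The mitotic, histone, Gimap and costimulatory lists lie mostly to the right of 0 and the interferon and nucleolar lists to the left, while cytosolic ribosomal proteins cluster between -0.55 and 0.36.

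Diacylglycerol carries part of the T cell receptor signal. Of 29 genes of diacylglycerol, phosphoinositide and protein kinase C signalling 10 rose and 2 fell. Rasgrp1, which activates Ras when it binds diacylglycerol, went from 10.92 and 10.93 to 12.55 and 12.46, 1.58 ± 0.07 and 2.99-fold (adjusted p 2.3e-05, limma). Its replicates lay within 0.1 of each other and the groups were far apart. Rasgrp2, an activator of Rap1, rose by 1.18 ± 0.07 and Rasgrp4 by 1.24 ± 0.15. Genes of kinases that remove the same lipid rose as well. Dgkd, a diacylglycerol kinase that removes it, stood at 8.98 and 8.98 fresh and at 10.04 and 10.10 in DMSO. Dgka and Dgkz, of the same kinase family and picked after their values were seen, rose by 0.62 ± 0.08 and 0.58 ± 0.09. Prkd2, protein kinase D2, rose by 1.09 ± 0.07, and Itpkb, which phosphorylates inositol trisphosphate and is needed for thymocyte selection, by 1.0 ± 0.07. Plcl2, a phospholipase C relative without catalytic activity, rose by 1.19 ± 0.07.

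Isoforms within this pathway went opposite ways. Of protein kinase C genes, Prkcb and Prkcq (both picked after their values were seen) rose by 0.71 ± 0.07 and 0.54 ± 0.07, whereas Prkca fell by 0.91 ± 0.08. Plcg2, the phospholipase C isoform prominent in B and myeloid cells, fell by 0.78 ± 0.09. Rasa2, which switches Ras off, rose by 0.85 ± 0.09, while Rras2 fell by 0.76 ± 0.07, Rapgef2 by 0.79 ± 0.08 and Rap1gap2 by 0.75 ± 0.08.

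Of 132 ion channel and calcium genes 8 rose and 8 fell, with a median change of 0.05. That is 6.06% each way, not far from the 3.83% and 5.06% over all genes, so single members are described. Camk4, a calmodulin-dependent kinase of thymocytes, was at 8.44 and 8.30 fresh and at 10.34 and 10.46 in DMSO, a rise of 2.03 ± 0.08 (4.10-fold, adjusted p 1.7e-05, limma). P2rx7, an ATP-gated channel, rose by 1.51 ± 0.08 and Ano6, a lipid scramblase, by 1.08 ± 0.09. Atp2a3, a calcium pump of the endoplasmic reticulum, and Stim1, its calcium sensor, rose by 0.86 ± 0.08 and 0.46 ± 0.07; both were picked after their values were seen. In the other direction the calpain protease Capn5 went from 11.48 and 11.41 to 8.63 and 8.76, a fall larger than any rise in this list. The potassium channel subunit Kcng3 fell by 1.99 ± 0.09 and Kcnip3, a calcium sensor that also binds DNA, by 1.39 ± 0.08.

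Of 65 phosphatases 8 fell and 4 rose. Ptpn13 fell by 1.38 ± 0.07, Ptprk by 1.0 ± 0.09, Ptprf by 0.88 ± 0.08, Dusp1 by 0.88 ± 0.14 and Ptpn14 by 0.82 ± 0.11. Dusp10, which dephosphorylates stress-activated kinases, rose by 0.98 ± 0.08.

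Receptors that guide position were exchanged. Of 54 G protein-coupled receptors for lipids, nucleotides and other ligands 7 rose and 8 fell. S1pr1, through which T cells leave the thymus, went from 7.75 and 8.16 to 10.23 and 10.22 (2.27 ± 0.13, 4.83-fold, adjusted p 4.9e-05, limma). Gpr183, a receptor for oxysterols, moved the other way, from 10.53 and 10.70 to 8.35 and 8.27. Ccr9, a chemokine receptor outside that list, rose from 10.18 and 10.54 to 12.76 and 12.79. It keeps thymocytes in contact with the thymic stroma. In each of the 3 the arrays of a group lay within 0.5 of each other and the groups did not overlap. Lpar6, a receptor for lysophosphatidic acid, rose by 1.0 ± 0.12 and Cnr2, the cannabinoid receptor of immune cells, by 1.14 ± 0.13. Adgrg1, an adhesion receptor, fell by 1.67 ± 0.07, Gpr83 fell by 1.77 ± 0.24 and Sstr2, a somatostatin receptor outside that list, by 2.37 ± 0.14.

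Cytokine receptors changed in make-up. Of 39 genes of JAK and STAT signalling 10 rose and 6 fell. Il21r went from 7.36 and 7.23 to 9.29 and 9.31, 2.00 ± 0.08 higher. Receptor chains for interleukin 6 and interleukin 4 rose too: Il6ra by 1.38 ± 0.11, and Il6st and Il4ra, picked after their values were seen, by 0.76 ± 0.09 and 0.89 ± 0.13. Il2ra, the CD25 marker of the halted stage, fell from 13.82 and 13.77 to 11.88 and 11.82, and Il7r, the receptor on which early thymocytes depend for survival, by 1.0 ± 0.08. The feedback inhibitor Socs2 fell from 9.56 and 9.60 to 7.45 and 7.40, close to Il2ra in the size of its fall. A run of 4 neighbouring receptor genes on chromosome 16 rose: Ifnar2 by 0.45 ± 0.07, Il10rb by 0.69 ± 0.09, Ifnar1 by 0.44 ± 0.07 and Ifngr2 by 0.92 ± 0.10. Ifngr1, the other chain of the interferon gamma receptor, picked after its values were seen, rose by 0.69 ± 0.07.

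Ligands and receptors of the TNF families moved both ways, 4 up and 6 down of 42. Fas, the death receptor, went from 6.08 and 6.10 to 7.65 and 7.64, with replicates almost equal. Ltb, a ligand of lymphoid tissue, rose by 0.92 ± 0.07 and Cd27 by 0.66 ± 0.08. Tnfsf10, the death ligand TRAIL, fell by 1.46 ± 0.08, Tnfrsf9, the receptor 4-1BB, by 1.22 ± 0.11 and Tnfrsf8, CD30, by 0.88 ± 0.11. Among 28 NF-kB genes the precursor subunit Nfkb2 fell by 1.58 ± 0.08 and the inhibitor Nfkbia rose by 0.70 ± 0.12. In 36 genes of PI3K, mTOR and Foxo signalling the count was 2 up and 2 down. Foxo1, a transcription factor that controls homing and survival genes, went from 8.66 and 8.69 to 10.07 and 10.13. Trib2, a pseudokinase, rose by 1.19 ± 0.08, and 2 inhibitors of mTOR activity fell, Deptor by 1.57 ± 0.09 and Castor1 by 0.93 ± 0.12. In the TGF-beta list of 34, Id3 rose from 6.51 and 6.48 to 8.93 and 9.0. Id3 blocks E proteins, the factors that hold thymocytes before receptor signalling, and Id2, its relative, fell by 0.58 ± 0.10. Skil and Ski, repressors of Smad transcription, rose by 0.80 ± 0.10 and 0.56 ± 0.07, and the receptor Tgfbr1 fell by 0.75 ± 0.07.

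**Figure D5:**
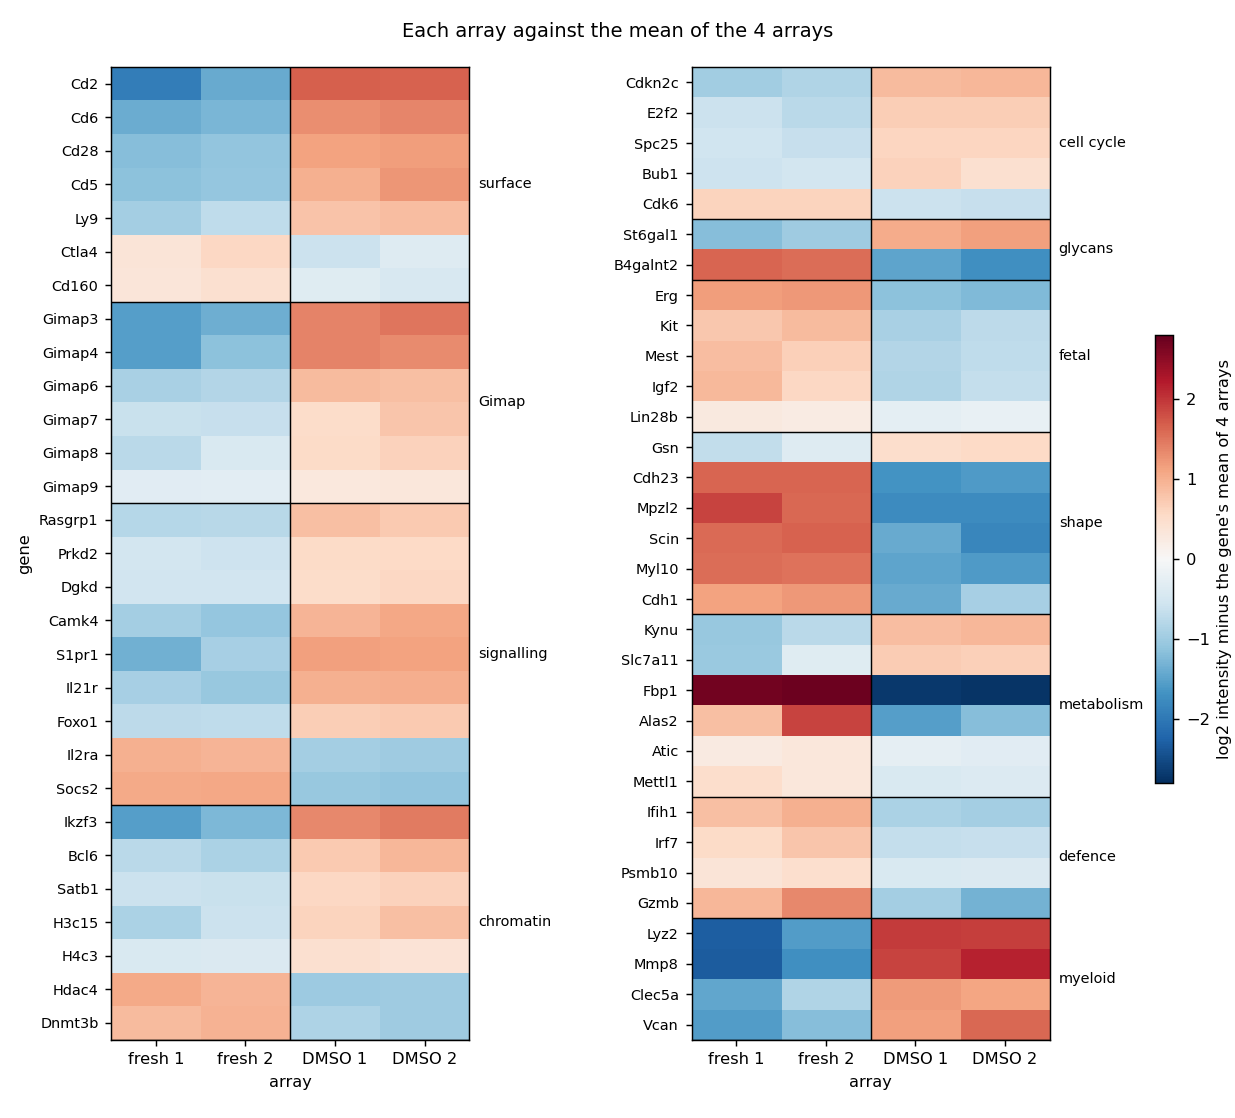
Heat map of the 4 arrays for genes described in the text and for Lin28b, which is not described there, grouped by role. Colour is log2 intensity minus the gene's mean over the 4 arrays, from blue (below it) to red (above it), and the columns of a group look alike, with the colour changing between fresh and DMSO.

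Transcription factors of the lymphoid zinc finger families rose in 5 of 52 cases and fell in 3. Ikzf3, which encodes Aiolos, had the largest change of these, from 8.38 and 8.66 fresh to 11.27 and 11.38 in DMSO (2.81 ± 0.10, 6.99-fold, adjusted p 1.4e-05, limma). Ikzf2 and Ikzf1 of the same family rose by 0.97 ± 0.08 and 0.73 ± 0.07. Bcl6, the repressor after which the series is named, went from 7.51 and 7.36 to 8.98 and 9.17, a rise of 1.64 ± 0.09 (adjusted p 5.1e-05, limma). All 4 of these genes were higher in each DMSO array than in each fresh array. Gfi1b fell by 1.32 ± 0.14, Bcl11a, which maintains early lymphoid progenitors, by 1.04 ± 0.13, and Zbtb16, the factor of innate-like T cells, by 0.59 ± 0.08. Of 58 Kruppel-like and nuclear receptor genes 6 rose and 4 fell, among them Nr4a1 (1.19 ± 0.11), induced by receptor signals, Klf2 (1.01 ± 0.09) and Rara (0.88 ± 0.10) upward, and Klf4 (-0.76 ± 0.10) downward. Snai3, a zinc finger repressor, rose by 2.55 ± 0.12.

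Satb1, which organises chromatin in thymocytes, went from 11.75 and 11.74 to 12.94 and 13.01. Hdac4, a class II histone deacetylase, fell from 11.86 and 11.75 to 9.79 and 9.81, and Dnmt3b, a DNA methyltransferase, from 9.10 and 9.18 to 7.34 and 7.22. Replicates of these 3 lay within 0.2 of each other. Hdac5, of the same class as Hdac4, rose by 1.25 ± 0.16 and Kdm7a, a histone demethylase, by 1.30 ± 0.08. In all, 9 of 47 remodelling and high mobility group genes rose and 2 fell (median 0.21), with Chd3 (0.86 ± 0.09), Tox (0.64 ± 0.08) and Hmgb2 (0.64 ± 0.09) upward and Tox3 (-1.24 ± 0.15) and Smarca4 (-0.49 ± 0.08), the motor of the BAF complex, downward. Of 69 Polycomb and modifying enzymes 6 rose and 4 fell.

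Of 29 histone genes 11 rose and 0 fell, 27 had a change above 0, and the median was 0.53. H3c15 rose by 1.47 ± 0.24 and H2ac4 by 1.24 ± 0.16. H4c3 stood at 11.12 and 11.13 fresh and at 11.94 or higher in both DMSO arrays. A run of 4 neighbouring histone genes on chromosome 3 (H2bc21, H3c15, H4c14 and H2bc18) rose together, by 0.55 to 1.47. Histone genes are nearly identical in sequence, so single members are uncertain.

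Genes of mitosis made up the list with the most changes. Of 83 kinetochore, spindle and cytokinesis genes 61 rose and 0 fell; 80 had a change above 0, the median was 0.61 and the range -0.28 to 1.20. The size of each rise was modest. Spc25, a subunit of the Ndc80 kinetochore complex, went from 8.87 and 8.78 to 10.01 and 10.03, Sgo2a, which protects cohesion at centromeres, rose by 1.15 ± 0.08 and Bub1, the checkpoint kinase, by 1.09 ± 0.09. The genes whose promoter sequences are printed above rose by 0.86 ± 0.07 (Kif11, a spindle motor), 0.86 ± 0.12 (Cenpl, a centromere protein), 0.83 ± 0.08 (Ncapg, a condensin subunit), 0.79 ± 0.08 (Top2a, which untangles DNA) and 0.77 ± 0.07 (Kif2c, which shortens microtubules). Top2a was at 11.85 and 11.82 fresh and at 12.66 and 12.57 in DMSO, so it was already bright before culture. Of 54 DNA repair genes 5 rose (8 to 9 under 4 of the alternatives) and 0 fell, among them Rad51c (0.73 ± 0.10), Fancd2 (0.72 ± 0.08) and Brca1 (0.50 ± 0.07).

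The genes that govern entry into the cycle were partly exchanged. Of 31 cyclins, kinases, inhibitors and E2F factors 15 rose and 2 fell. Among D cyclins, Ccnd3, picked after its values were seen, rose by 0.99 ± 0.08 and Ccnd2 fell by 1.01 ± 0.10. Cdk6, a partner kinase of both, fell from 12.83 and 12.82 to 11.60 and 11.56. The groups were separated by more than 1 log2 unit, with replicates within 0.1. Inhibitors rose in the same arrays as the mitotic genes. Cdkn2c, the p18 inhibitor of Cdk4 and Cdk6, went from 7.57 and 7.71 to 9.44 and 9.48. Cdkn1b, p27, rose by 0.95 ± 0.11, Rb1, the retinoblastoma protein, by 1.21 ± 0.07 and E2f2 by 1.37 ± 0.08. Of 25 genes that restrain lymphocyte growth 9 rose and 1 fell (median 0.30). These included Vsir, the checkpoint protein VISTA, at 8.69 and 8.79 fresh and 10.30 and 10.48 in DMSO, and Ccng2, a cyclin of non-dividing cells, up by 1.24 ± 0.08.

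Of 36 factors and receptors of stem and progenitor cells 12 fell and 2 rose. Erg, an ETS factor of blood stem cells, went from 9.07 and 9.10 to 6.74 and 6.66, and Kit, the receptor for stem cell factor, from 9.48 and 9.62 to 7.80 and 7.98. Both genes had all DMSO arrays below all fresh arrays by more than 1.4. Mycn fell by 1.53 ± 0.09, Nfib by 1.44 ± 0.14, Nfia by 1.14 ± 0.13 and Meis1, picked after its values were seen, by 0.92 ± 0.11. Ikzf2 and Csf2rb were the 2 that rose, and Csf2rb (1.36 ± 0.22) is a receptor chain also found on myeloid cells.

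Of 27 imprinted and fetal genes 11 fell and 1 rose. Igf2, a fetal growth factor, went from 11.12 and 10.79 to 9.37 and 9.55. Mest fell by 1.53 ± 0.12, Zim1 by 1.03 ± 0.11, Peg10 by 1.0 ± 0.10, Grb10, an adaptor that restrains insulin signals, by 0.98 ± 0.08, and Peg3 by 0.95 ± 0.09. The exception was Cdkn1c, p57, an imprinted inhibitor of the cell cycle, which rose by 0.73 ± 0.09. Igf2 is also made by thymic stroma, and the summed epithelial markers fell in the same arrays; their part in these falls was not tested.

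Genes of protein synthesis and building blocks did not follow the mitotic genes. Of 32 nucleolar and RNA-modifying genes 9 fell and 0 rose, 31 had a change below 0 and the median was -0.39. Mettl1 and Trmt61a, both transfer RNA methyltransferases, fell by 0.81 ± 0.09 and 0.76 ± 0.08, and the RNA polymerase I subunits Polr1a and Polr1b by 0.59 ± 0.07 and 0.54 ± 0.08. Of 36 genes for nucleotides and one-carbon units 7 fell and 0 rose, including the purine enzymes Atic (-0.57 ± 0.07), Paics (-0.54 ± 0.09) and Gart (-0.42 ± 0.07) and the serine enzyme Phgdh (-0.54 ± 0.08). Of 18 transfer RNA synthetases 2 fell, Iars (-0.50 ± 0.07) and Wars (-0.47 ± 0.08), and 16 had a change below 0. Cytosolic ribosomal proteins stayed near 0: 1 of 60 fell, the median was 0.0040 and the range -0.55 to 0.36. The mitochondrial ribosome (1 of 77 fell), the constitutive proteasome (0 of 34 called) and oxidative phosphorylation (2 up and 1 down of 75) had medians of -0.0075, 0.045 and 0.083. At an unadjusted p under 0.05 (limma) 5 proteasome genes were higher and 1 lower. Among the proteasome genes the smallest p was that of Psmd8, at 11.61 and 11.57 fresh and 11.92 and 11.96 in DMSO, with an adjusted p of up to 0.0874 when 1 array was left out.

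Single metabolic enzymes moved further than any of these lists. Fbp1, which reverses a committed step of glycolysis, read 11.95 and 11.97 in the fresh and 6.53 and 6.49 in the DMSO arrays (probe set 10410007). The difference of -5.45 ± 0.07, 43.6-fold lower (adjusted p 2.2e-07, limma), was larger than that of any other gene counted. Khdc1a followed, from 9.72 and 9.62 to 4.85 and 4.37 (-5.06 ± 0.21); it belongs to a family of like sequences. Of 37 enzymes of intermediary metabolism 9 fell and 3 rose. Aldh1b1, a mitochondrial aldehyde dehydrogenase, fell by 1.35 ± 0.09, Prodh, which oxidises proline, by 0.94 ± 0.07 and Gatm, of creatine synthesis, by 0.92 ± 0.16. Kynu, of tryptophan breakdown, rose by 1.80 ± 0.15. Fatty acid genes had 5 that fell and 1 that rose of 39, with Fads3 (-0.99 ± 0.09), Acadl (-0.77 ± 0.08) and Cpt1a (-0.66 ± 0.08), the gate of fatty acid entry into mitochondria, downward. Of 37 nutrient transporters 6 rose and 2 fell. Slc7a11, which imports cystine, rose by 1.38 ± 0.20 and Slc28a2, a nucleoside carrier, by 1.24 ± 0.08, while Slc7a5, which imports large neutral amino acids, fell by 0.50 ± 0.07 and Slc16a10 by 0.84 ± 0.07. In the haem and thiol list of 48 the count was 4 up and 7 down. Alas2, the erythroid enzyme of haem synthesis, was at 8.56 and 9.59 in the fresh and 6.16 and 6.52 in the DMSO arrays. The fresh arrays lay far apart. Of 7 red cell markers 2 fell, Alas2 and Gata1 (-0.78 ± 0.09), and 1 rose, Hemgn (0.60 ± 0.08). The 7 markers summed to 1921 and 2404 in the fresh and to 2071 and 1854 in the DMSO arrays.

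Glycan enzymes were exchanged, 5 up and 11 down of 84. St6gal1, which caps galactose with sialic acid, went from 6.41 and 6.61 to 8.64 and 8.76 (2.19 ± 0.11, 4.56-fold, adjusted p 2.7e-05, limma). B4galnt2, which adds a terminal N-acetylgalactosamine, fell from 8.97 and 8.90 to 5.85 and 5.62 (-3.20 ± 0.12, 9.20-fold lower, adjusted p 1.4e-05, limma). The groups were separated by at least 2 log2 units in both genes. St8sia1, the synthase of the ganglioside GD3, rose by 1.05 ± 0.07 and B4galt6 by 1.22 ± 0.16, while B3gnt6 fell by 1.43 ± 0.15 and B4galnt4 by 1.17 ± 0.07.

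Genes of cell shape were called in both directions. Of 45 actin regulators 8 rose and 1 fell. Fmnl1, a formin of leukocytes, rose by 1.05 ± 0.09, Tmsb10, which binds actin monomers, by 0.93 ± 0.07, and the adaptors Skap1 and Fyb by 0.63 ± 0.07 and 0.60 ± 0.08. A pair of related actin-severing proteins went opposite ways. Gsn, gelsolin, rose from 7.56 and 7.89 to 8.76 and 8.82, and Scin, scinderin, fell from 11.08 and 11.15 to 8.07 and 7.67. Contractile genes gave 2 up and 4 down of 63 (3.17% and 6.35%), near the shares over all genes. Myl10, a myosin light chain also known from lymphocyte precursors, went from 10.08 and 10.04 to 7.05 and 6.93. Myl4 fell by 2.59 ± 0.10 and Uaca by 2.66 ± 0.11.

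Of 67 junction genes 12 fell and 1 rose. Mpzl2, an adhesion protein, went from 12.63 and 12.35 to 8.98 and 8.98, and Cdh23, an unusually long cadherin, from 10.73 and 10.72 to 7.41 and 7.51. Cdh1, E-cadherin, fell from 10.95 and 11.03 to 8.41 and 8.89. In all 3 each DMSO array lay at least 2 log2 units below each fresh array. Dsp, desmoplakin, fell by 1.47 ± 0.10, and Epcam by 1.23 ± 0.11, whereas Cdh24 rose by 1.94 ± 0.14. Afdn, afadin, an actin-binding junction protein outside that list, fell by 2.15 ± 0.07. Mpzl2 lies next to the CD3 genes on chromosome 9, and Cd3g, Cd3d, Cd3e and Mpzl2 formed a run of genes that fell.

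Markers of thymic epithelium fell in the same arrays, 14 of 20 with a median of -1.10 and 0 that rose. Foxn1, the master factor of that tissue, picked after its values were seen, was at 8.20 and 7.91 fresh and at 6.62 and 6.93 in DMSO. Tbata was at 10.43 and 10.38 fresh and at 8.28 and 9.20 in DMSO, and Krt5 and Pax1 fell by 1.57 ± 0.11 and 1.5 ± 0.12. Cdh1 and Epcam are members of both lists, and the part of epithelial RNA in the falls of the junction genes named was not tested. Of 15 mesenchymal and endothelial markers 1 fell, Pdgfrb by 1.60 ± 0.08, and the median was -0.0061.

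Of 37 genes that sense nucleic acids and carry interferon signals 20 fell and 0 rose, with a median of -0.58. Ifih1, the sensor MDA5 of double-stranded RNA, went from 11.17 and 11.32 in the fresh to 9.44 and 9.38 in the DMSO arrays (-1.84 ± 0.08, 3.57-fold lower, adjusted p 2e-05, limma). Its relative Dhx58 fell by 1.74 ± 0.08. Irf7, the factor that amplifies interferon production, read 11.24 and 11.50 and then 10.04 and 10.08, and Irf9, which binds the response element printed above, fell by 1.25 ± 0.09. For these sensors and factors both DMSO arrays lay below both fresh arrays by at least 1. Parp9 (-1.41 ± 0.08) and Parp14 (-1.31 ± 0.07) fell too, and Usp18, which shuts off the interferon receptor and was picked after its values were seen, by 1.0 ± 0.08. The interferon receptor chains, by contrast, are those that rose on chromosome 16.

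Effector genes of the same response fell as well, and several lie in runs. On chromosome 19, Ifit3, Ifit3b, Ifit1bl2 and Ifit1, which bind foreign RNA, fell by 1.49 ± 0.16, 1.94 ± 0.22, 1.10 ± 0.09 and 1.75 ± 0.14. On chromosome 5 the guanylate-binding proteins Gbp8, Gbp9, Gbp4 and Gbp11 fell by 0.75 to 1.42. On chromosome 7 the run was Trim6, Trim34a, Trim12a, Trim12c, Trim30a and Trim30d, with falls of 0.55 to 1.53. These are families with like sequences, and neighbours can share probe signal. Of the genes whose promoters hold the interferon response element, Gm12185 fell by 2.37 ± 0.09, Gm12250 by 2.13 ± 0.09, Apol7c by 2.05 ± 0.22 and Ddx60, picked after its values were seen, by 1.78 ± 0.09. Ube2l6, which attaches the interferon-induced modifier Isg15, fell by 2.36 ± 0.11 and Mx2 by 2.08 ± 0.15.

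Of 23 genes of antigen processing for class I molecules 5 fell and 0 rose. The immunoproteasome subunit Psmb10 fell by 0.83 ± 0.09, the loading factor Tapbp by 0.80 ± 0.07, the proteasome activators Psme1 and Psme2 by 0.60 ± 0.10 and 0.56 ± 0.08 and H2-T24 by 0.58 ± 0.07. The constitutive proteasome, as given above, had 0 called of 34.

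Of 14 genes that mark NK cells and innate lymphoid cells 5 fell (median -0.44) and 0 rose. Gzmb, the cytotoxic protease, was at 10.19 and 10.62 fresh and at 8.32 and 7.93 in DMSO. Xcl1, a chemokine, fell by 1.42 ± 0.20, Nkg7, a granule protein, by 1.28 ± 0.09 and Ncr1, the receptor that defines NK cells, by 0.95 ± 0.16. Among 24 genes of gamma-delta and innate-like T cells 4 rose and 3 fell: Id3, 5830411N06Rik (1.72 ± 0.08), Etv5 (0.99 ± 0.12) and Cd27 against Cpa3 (-1.61 ± 0.13), Blk (-0.81 ± 0.12) and Zbtb16.

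Of 15 granulocyte and mast cell markers 7 rose and 1 fell (median 0.89), and of 19 macrophage and dendritic cell markers 4 rose and 0 fell (median 0.35). Mmp8, a neutrophil collagenase, went from 6.33 and 6.94 to 10.54 and 10.80 (4.03 ± 0.20, 16.4-fold, adjusted p 2.9e-05, limma). Lyz2, the lysozyme of macrophages and granulocytes, went from 8.80 and 9.55 to 13.07 and 13.04 (3.88 ± 0.22, 14.7-fold, adjusted p 5.1e-05, limma). In both genes fresh 2 lay above fresh 1 by more than 0.6, and the groups did not overlap. Hp rose by 2.90 ± 0.14, S100a8 by 2.03 ± 0.22, Adgre1, the F4/80 antigen, by 1.63 ± 0.23 and Csf1r by 1.43 ± 0.19. The mast cell protease Cpa3 was the granulocyte and mast cell marker that fell.

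Several other lists contain myeloid genes. Of 64 genes of complement, Fc receptors and pattern recognition 9 rose and 2 fell, among them the lectin receptors Clec5a (5.54 and 6.13 fresh, 8.18 and 8.08 DMSO), Clec4e (2.26 ± 0.14) and Clec7a (1.63 ± 0.18) and the RNA sensor Tlr8 (1.98 ± 0.16). Of 40 lysosomal genes 6 rose and 1 fell, with Tfec (1.98 ± 0.26), Ctsc (1.12 ± 0.14) and Lipa (0.93 ± 0.08) upward. Of 29 autophagy genes 3 rose and 0 fell: Bnip3 by 1.17 ± 0.14, Atg4a by 0.95 ± 0.07 and Atg16l2 by 0.50 ± 0.08. Of 150 proteases and inhibitors 5 rose and 9 fell, and Serpinb1a (-1.80 ± 0.12) and Adam19 (-1.51 ± 0.07) were the largest falls. Of 72 matrix genes Vcan, versican, rose from 6.86 and 7.23 to 9.58 and 10.02. The summed macrophage markers, given above, were higher in both DMSO arrays and their part in these rises was not tested.

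MicroRNA genes gave few calls, 2 up and 2 down of 300, less than the share over all genes. The array reads the precursor or host transcript, not the mature microRNA. The mature sequences of the 4 genes called are printed because they are the products of those transcripts, with the seed, bases 2 to 8, in capitals (RefSeq).
mmu-miR-181a-5p: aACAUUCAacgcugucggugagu
mmu-miR-181b-5p: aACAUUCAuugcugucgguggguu
mmu-miR-18a-5p: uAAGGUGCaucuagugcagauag
mmu-miR-687: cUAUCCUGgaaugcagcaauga
The first pair share their seed. Mir181a-1 rose by 0.51 ± 0.08, and Mir181b-2, from another locus of the family, fell by 0.72 ± 0.09. Mir18, of the cluster that promotes lymphocyte growth, fell by 0.75 ± 0.13. Mir687 rose by 1.34 ± 0.07, from low values of 4.89 and 4.93 fresh to 6.21 and 6.28 in DMSO. Ordered by start position on chromosome 14, it comes between Rb1 and Lpar6. It is part of a run of genes that rose and that begins with Rcbtb2 (0.84 ± 0.11). Whether genes of this run overlap, and so share signal, was not examined.

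Receptor gene segments were read where a probe set carried a single symbol. Of 9 T cell receptor entries and 11 immunoglobulin entries 0 were called by the limma rule. At an unadjusted p under 0.05 the T cell receptor list had 2 higher and 1 lower and the immunoglobulin list 0. Trgv1 was bright in all arrays, at 12.31 and 12.30 fresh and 12.41 and 12.39 in DMSO. Trav14-1 read 5.37 and 4.30 fresh and 6.44 and 7.39 in DMSO, a difference of 2.08 ± 0.39 whose adjusted p reached 0.0539 with 1 array left out. Of 1015 olfactory receptor genes, a family not at work in lymphocytes, 1 rose and 2 fell. Olfr1507, which follows Tcra, Trav1, Olfr1509 and Olfr1508 in the RefSeq gene order, went from 6.82 and 7.35 to 4.59 and 4.56. It was the largest fall in that family, and both DMSO values were under 5.

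The Wnt and Hedgehog list gave 0 up and 2 down of 57, Nkd1, a feedback inhibitor of Wnt, and Fzd9, a Wnt receptor. Splicing regulators gave 1 up and 2 down of 48: Hnrnpll, which controls the splicing of Ptprc, rose by 0.57 ± 0.08, while Esrp1 (-0.97 ± 0.09), a factor of epithelial splicing, and Rbfox2 (-0.88 ± 0.08) fell. Guidance receptors gave 2 up and 1 down of 55, RNA decay genes 2 up and 1 down of 30 and the tricarboxylic acid cycle 0 up and 2 down of 30. Circadian genes gave 1 up and 3 down of 19: Arntl rose by 0.63 ± 0.09, and Nr1d2, Per3 and Tef fell by 0.46 to 0.51. Glucocorticoid-responsive genes moved both ways, 3 up and 6 down of 22, with Ddit4 (0.90 ± 0.12) and Zfp36 (0.92 ± 0.16) higher and Dusp1 and Tsc22d1 (-0.64 ± 0.07) lower.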

How the data were processed

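Gene expression in 6 samples was measured on 1-colour Affymetrix whole-transcript mouse arrays. The deposited values are intensity summaries made by the authors with RMA in the package oligo, per the submitters' processing notes; their versions and the genome build were not given in the sources used here. They run from 8.75 to 25316 and so are on the linear scale. The planned test assumed log2 values, and log2 was taken first.

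Of 34760 probe sets 21640 carried a single gene symbol, 1321 several and 11799 none. For each of 19937 genes the brightest probe set over the 6 arrays was used; 954 genes had more than 1. Entrez identifiers of 21553 probe sets matched RefSeq, and 0 symbols changed. The model held 1 mean for each group of the 6 arrays (lmFit, then eBayes, of limma 3.58.1 under R 4.3.3, two-sided, 3 residual and 4.24 prior degrees of freedom), with Benjamini-Hochberg adjustment over all genes. The fit was tested on simulated data.

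The members and the 60 gene and 9 marker lists were chosen with earlier results of these data known, so a list's direction is no independent evidence. Entries matched to a list by spelling alone were dropped. The result of 1 list is not reported here. Genes eligible to be named were the 40 largest changes each way and up to 6 called members of a list. Up to 3 called members in a list's rarer direction were added, and up to 3 of smallest p for a list without calls. Also eligible were all members of lists of 15 or fewer and runs of 4 or more neighbours in RefSeq order. So were up to 4 called markers per cell type, and Thy1, Rag1 and Bcl6. Not every eligible gene is described above. Genes said to be picked after their values were seen fall outside these rules. The 392 named genes counted below are the called ones among all these, described or not. Alternatives were a replicate block, equal medians, quantile scaling, the 4 arrays alone, the mean of probe sets, a filter on dim genes, limma with trend and robust settings, and the macrophage median as covariate.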

Additional observations from a re-analysis of the deposited data

Results flagged for a closer look

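Probe sets without a gene symbol were outside the main measurement. In a separate fit over all 34760 probe sets, 23 of 11799 such probe sets rose and 65 fell, 0.746% in all. The rule was the same, but the 8.88% of genes comes from adjustment over 19937 genes. The shares are therefore not like for like. The largest changes were those of probe sets 10565994 (2.68) and 10452316 (2.20) upward and 10343108 (-3.17) and 10339499 (-2.73) downward. Of 1321 probe sets with several symbols 6 rose and 13 fell. Groups of 2 arrays are too small for a test of single arrays that stand apart.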

How the results depend on the processing

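The count of changed genes, 1771 (763 higher, 1008 lower), was 1915 (971 and 944) with array medians made equal, 1923 (895 and 1028) after quantile scaling, 2029 (870 and 1159) on the 4 arrays alone, 1784 (769 and 1015) with the mean of a gene's probe sets, 1995 (875 and 1120) without dim genes and 2441 (1111 and 1330) with trend and robust settings. Equal medians thus turned which direction held more genes. With the macrophage median as covariate the counts were 0, 0 and 0 in every fit and 201, 59 and 142 in the limma fit of all arrays, where 2331 genes had an unadjusted p under 0.05. That covariate moves with the group, and its fits without an array have 1 residual degree of freedom. In it Csf2rb changed sign (-0.0145), as did Wfdc17 (-0.11), of 392 named genes.

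Replicate numbers were not shown to pair arrays, since same-numbered arrays' deviations correlated at 0.0036, 0.095 and -0.074. With a replicate block 1401 genes met the rule (614 and 787), 1320 of them shared with the main call, and 344 of 392 named genes did. The other alternatives without the covariate left 377 to 391 of the named genes called. Of 138 list counts 33 moved by over 1.5 times with the block, among them nucleolar genes that fell (9 to 3), nucleotide genes that fell (7 to 2) and remodellers that rose (9 to 4), and 36 with trend and robust settings, among them nucleolar genes that fell (17) and actin regulators that rose (8 to 16, against 5 with the block). Nucleotide genes that fell came to 4 with array medians made equal.

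In the fit of all arrays alone, leaving out 1 array gave 2286 to 4070 genes in all, 921 to 1886 higher and 1204 to 2184 lower.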
